A study of Mus musculus with 16 samples.

Results

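Cytosolic ribosomal proteins build the large and the small subunit of the ribosomes that translate nuclear-encoded mRNA. They were taken from the deposited expression table by symbol: Rpl or Rps followed by a digit, together with Rplp0, Rplp1, Rplp2 and Rpsa. Of 102 symbols that begin in this way, 9 S6 kinase genes, 10 names marked as pseudogenes, Rps19bp1 and Rpl7l1 were left out. This gave 81 genes of 12012 in the table, 49 named for the large subunit and 32 for the small one. Rps12, Rpl3l, Rpl10l and Rps4l were not analysed here.

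The study asked how valine in the diet bears on a mouse T cell acute lymphoblastic leukaemia (T-ALL). Every library came from C57BL/6 mice with a secondary transplant of a tumour driven by NOTCH-ΔE, an activated Notch receptor, and leukaemic cells were sorted from the spleen by GFP after 3 weeks on the diet. The control diet held 8 g/kg valine, and the others held 0, 0.4 or 0.8 g/kg, as given by the sample characteristics. The treatment protocol speaks instead of valine in drinking water for both intermediate doses. For each diet, 2 total RNA libraries stood beside 2 of RPF, the ribosome-protected fragments of mRNA that nuclease leaves, under the names T-ALL 2 and T-ALL 3. Whether these numbers mark separate tumours, mice or both is not said, so p-values measure the spread between these samples, which may be technical.

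Ribosomal protein mRNAs are among the most abundant mRNAs of a dividing cell. They belong to the TOP mRNAs, which begin with a C followed by a run of pyrimidines, and their translation is held back by Larp1 when the amino acid sensing kinase complex mTORC1 is inactive. Mutations of RPL5, RPL10 and RPL22 occur in human T-ALL, and loss of 1 copy of several others causes Diamond-Blackfan anaemia.

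The bases around the annotated start are shown for the members with the lowest and the highest footprint level per mRNA described further on, since the TOP motif lies there. Each sequence is the sense strand from RefSeq (GRCm38.p6), 15 bases before the start and 15 from it onwards, with the longest run of C and T in capitals. Rpl22l1 is at chr3:28805493-28805522, Rpl41 at chr10:128549154-128549183, Rpl39 at chrX:37085208-37085237, Rpl39l at chr16:10170213-10170242 and Rps28 at chr17:33824548-33824577, and these 5 had the lowest means. Rps28 is among them through 1 pair with no RPF read, at -9.07, and its median over the 8 pairs was -1.66. Rpsa is at chr9:120127751-120127780, Rpl36al at chr12:69184053-69184082 and Rpl15 at chr14:18270972-18271001, and these were among the 5 highest. Rpl39, Rpl41, Rps28, Rpl36al and Rpl15 lie on the minus strand and the others on the plus strand.
Rpl22l1: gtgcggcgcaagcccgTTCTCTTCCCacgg
Rpl41: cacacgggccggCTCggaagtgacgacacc
Rpl39: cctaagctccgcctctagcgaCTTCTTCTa
Rpl39l: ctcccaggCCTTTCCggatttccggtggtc
Rps28: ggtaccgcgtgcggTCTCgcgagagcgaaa
Rpsa: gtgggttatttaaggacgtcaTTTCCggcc
Rpl36al: caTTCCCgtcgctcaggttcagttccgact
Rpl15: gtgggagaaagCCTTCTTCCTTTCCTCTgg

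A run of at least 8 letters that are each C or T, read on the sense strand only, was present in a window of 27 of the 60 members with an entry (45%), against 13.9% of 27025 genes with an entry. Over windows, of which a gene can have several, it was 39.4% of 71 member windows and 12.003% of all 32851. The run did not sort the members by footprint level: the 26 tested members with it had a median log2 RPF over total RNA of -1.75 and the 33 without it -1.56. Both the lowest member, Rpl22l1, and the highest, Rpl15, had a run. The run could lie anywhere in the window, also before the start, and did not have to begin with a C at the start. These counts are therefore not counts of TOP motifs. The annotated start can differ from the start used in these cells.

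Across the 16 libraries, reads recovered from the expression values numbered 364685 to 1269364 for total RNA and 41848 to 205545 for RPF, so that footprint values rest on far fewer reads. Of 22 T cell genes in the table, none was at 0 in both total RNA libraries of any diet, and their sum ran from 83.7 to 114 per 10000 reads. Single ribosomal proteins are uncertain where near-identical copies exist. Rps27 had 2 reads over the 8 total RNA libraries while its intronless copy Rps27rt had 4407, and Rpl6l had 4; Rps27 and Rpl6l fell under the filter of a mean FPKM of 1 (reads scaled by gene length and library size) and had no RPF read. The other 79 members passed the filter in both fractions, 48 of the large and 31 of the small subunit, and Rpl39l passed it in RPF with 3 reads in all.

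Members differed widely in mRNA level on the control diet. Rps3a1, a small subunit protein, was highest at 6276 ± 306 FPKM (SD, n = 2), beside Rplp0, the base of the acidic stalk, at 6192 ± 160.2 FPKM. Rplp1, another stalk protein, followed at 4028 ± 131 FPKM, beside Rps14 at 3984 ± 21.4 FPKM. Rps3a1 and Rplp0 did not differ beyond their spread, and neither did Rplp1 and Rps14. At the low end stood the paralogs: Rpl39l, a copy of Rpl39 known from testis, at 10.3 ± 0.857 FPKM and Rpl22l1, a copy of Rpl22, at 115 ± 15.2 FPKM. Rpl15, a core protein of the large subunit, was at 120.4 ± 2.26 FPKM, within the spread of Rpl22l1.

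In every pair of libraries the ribosomal proteins held fewer footprints for their mRNA than the median gene. The measure is log2(RPF FPKM + 0.5) minus log2(total RNA FPKM + 0.5) of the same diet and T-ALL number, with the median gene of each pair set to 0. The median of the 79 members was -1.63, a fold of 0.323, against -0.26 over all genes tested. By pair, the member median ran from -2.06 (T-ALL 2, 0.4 g/kg) to -1.07 (T-ALL 2, 8 g/kg), and between 9.82% and 32.8% of the 9361 genes tested lay below it. Within a pair, 76 to 79 members were below 0, where the centring puts as many of all genes above 0 as below. In single genes, 74 members were below 0 in all 8 pairs, another 4 in 7 pairs, and Rpl15 in 2. The share of all genes below 0 in all 8 pairs was not counted.

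The mean over pairs was tested against 0, the median gene of each pair, with limma over all genes. At an adjusted p under 0.05, 43 of 79 members were lower, 26 of the large and 17 of the small subunit, and none was higher. The median of these means over all genes, given above, lies below that 0. In all, 3.6% of genes tested were called lower and 7.52% higher. The count of calls was not stable, although the member median moved little when a pair was left out. Single members moved more: over the alternative runs Rpl39l ran from -4.89 to -0.80 and Rpl39 from -4.59 to -3.00. The counts that follow are of members. With a pair left out, fewer of all genes were called lower as well. The share of all genes called in the other runs is not given here. Leaving out 1 pair of libraries at a time left 0 to 4 calls, a pseudocount of 0.1 left 3 and thinning to equal depth 13, with member medians between -1.69 and -1.51 in the fits that left out a pair. The count rose to 77 when the variance trend was run on the mean RPF level (71 to 75 without 1 pair), a setting chosen after the calls had been seen, and to 77 with voom on the recovered reads, so the number of calls depends on how the spread is modelled.

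**Figure D1:**
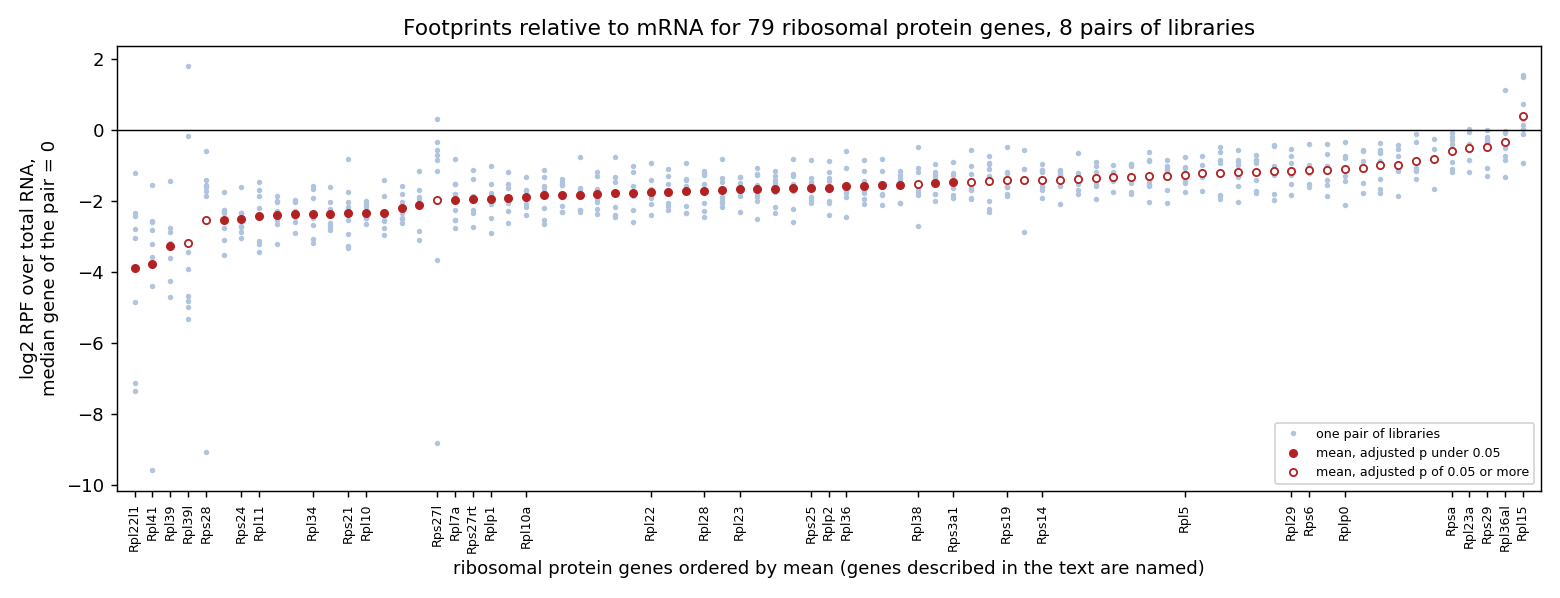
Log2 RPF over total RNA for each of 79 ribosomal protein genes (x axis, ordered by mean, with the genes described in the text named), with the median gene of each pair at 0. Pale points are the 8 pairs of libraries, red points the mean, filled where the adjusted p was under 0.05; the means of all genes but Rpl15 lie below 0.

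Rpl39, which lines the exit tunnel for the nascent chain, showed the low footprint level without a library at 0. Its total RNA ran from 536 to 795 FPKM, and its RPF values were 236 and 36.1 FPKM at 0 g/kg, 68.6 and 24.7 at 0.4, 70.1 and 96.0 at 0.8, and 68.9 and 20.2 at 8 g/kg (T-ALL 2, then T-ALL 3). The first of these stands apart from the other 7. Its mean log2 ratio was -3.27 ± 0.49 (SE, adjusted p = 0.0121), on 41 RPF reads. In the same order these were 13 and 2 reads at 0 g/kg, 6 and 1 at 0.4, 9 and 7 at 0.8, and 2 and 1 at 8 g/kg. Rps24, a small subunit protein mutated in Diamond-Blackfan anaemia, had a tighter spread: its 8 pairs lay between -3.06 and -1.63, with a mean of -2.51 ± 0.41 (SE, adjusted p = 0.0155). Rpl10, a late-joining protein near the peptidyl transferase centre, lay between -2.65 and -2.01 in its 8 pairs, with a mean of -2.36 ± 0.40 (SE, adjusted p = 0.0176). The limma SE and p also draw on the spread of other genes. The SD of the 8 pairs was 0.23 for Rpl10, below its SE, and 0.45 for Rps24.

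Rpl22l1 and Rpl41, the shortest ribosomal protein, had the lowest means at -3.90 ± 0.74 and -3.80 ± 0.78 (SE), but on 19 and 29 RPF reads with 2 and 1 libraries at 0 reads. Their values, and those of Rps28, Rps27l and Rpl39l (1, 1 and 6 RPF libraries at 0), depend on the pseudocount. Rpl39l and Rps28 missed the threshold, at adjusted p = 0.0547 and 0.0892.

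Rpl15 was the exception at the upper end. Its RPF values were 104 and 184 FPKM at 0 g/kg, 54.6 and 118 at 0.4, 114 and 310.2 at 0.8, and 87.8 and 83.5 at 8 g/kg. Its total RNA ran from 79.01 to 127 FPKM. Its mean log2 ratio was 0.39 ± 0.29 (SE, adjusted p = 0.388), with pairs between -0.93 and 1.53. Next came Rpl36al, a copy of Rpl36a, at -0.34 ± 0.26, Rps29 at -0.49 ± 0.28, Rpl23a at -0.51 ± 0.28 and Rpsa, also known as the laminin receptor, at -0.59 ± 0.30 (SE). None of these 4 passed the threshold. Across the 79 members the ratio followed neither gene length read from the FPKM steps (Pearson r = 0.06, Spearman rho = 0.11) nor clearly the mean total RNA level (r = 0.25, rho = 0.20); members share libraries, and these are descriptions across genes.

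The summed share of reads showed the same gap between fractions. In total RNA, members took 1322 (T-ALL 2) and 1325 (T-ALL 3) of 10000 reads at 8 g/kg, 1319 and 1271 at 0.8, 1256 and 1251 at 0.4, and 1289 and 1166 at 0 g/kg. The controls were the highest 2 of the 8 libraries and T-ALL 3 at 0 g/kg the lowest. Summed as FPKM per 10000 instead, T-ALL 3 at 0 g/kg was again the lowest of the 8 (2084.7), but T-ALL 2 at 0.8 g/kg (2261.5) stood level with the T-ALL 2 control (2260.9). In RPF the shares were 555 and 457 at 8 g/kg, 403 and 491 at 0.8, 287 and 466 at 0.4, and 460 and 503 at 0 g/kg. There the diets overlapped, and T-ALL 2 at 0.4 g/kg stood apart from the other 7. Within a pair, the RPF share was 0.228 to 0.432 of the total RNA share. A share is relative: fewer cells of a type and less RNA per cell cannot be told apart in bulk samples.

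**Figure D2:**
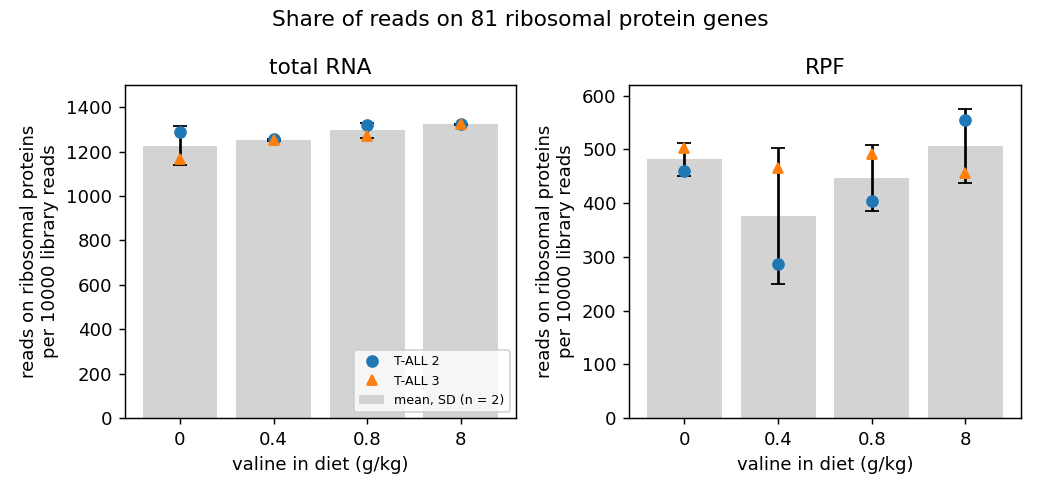
Reads on 81 ribosomal protein genes per 10000 library reads (y axis) by dietary valine (x axis) in total RNA and RPF; bars are means with SD (n = 2), points the T-ALL 2 and T-ALL 3 libraries. Total RNA shares lie between 1166 and 1325 and RPF shares between 287 and 555.

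Without dietary valine, nearly all ribosomal protein mRNAs were slightly lower than on the control diet, but no single one passed the test. In total RNA at 0 against 8 g/kg, 77 of 79 members had a log2 change below 0, with a median of -0.15 (fold 0.900) against -0.04 over all 10054 genes tested. None was called at an adjusted p under 0.05 by limma, where 0% of all genes were, and none by voom. At an unadjusted p under 0.05, 14 members were lower and 0 higher, beside 4.02% and 2.57% of all genes. Both 0 g/kg libraries lay below both controls for 42 of 79 members, where 20.3% of all genes did. The large and the small subunit had medians of -0.15 and -0.16.

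That median came mainly from T-ALL 3. There it was -0.28, with 77 members lower, while in T-ALL 2 it was -0.06, with 55 lower. When T-ALL 3 at 0 g/kg was left out, the fitted median was -0.05, when T-ALL 2 at 0 g/kg was left out it was -0.29, and quantile normalization brought it to 0.01.

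At 0.4 g/kg the total RNA median was -0.08, with 58 members lower, against -0.01 over all genes. In T-ALL 2 it was -0.07 with 56 lower, no nearer to the control than at 0 g/kg, and in T-ALL 3 it was -0.09 with 60 lower. Both libraries lay below both controls for 41 of 79 members at 0.4 g/kg, where 1908 of all 10054 genes did, beside 42 members at 0 g/kg. They lay above both controls for 6 members and 1850 of all genes. No member was called, as was 0% of all genes, and 1 was lower and 0 higher at an unadjusted p under 0.05, beside 1.5% and 1.59%. At 0.8 g/kg the median was -0.02, with 48 lower, against -0.03; none was called, as was 0% of all genes, and 1 was lower and 1 higher, beside 2.14% and 1.31%. Over the diet ranks, 77 of 79 members rose in value with valine, at a median slope of 0.05 per rank against 0.01 over all genes. The slope was 0.02 in T-ALL 2 (57 higher) and 0.09 in T-ALL 3 (77 higher), fell to 0.02 when T-ALL 3 at 0 g/kg was left out, was 0.08 without T-ALL 2 at 0 g/kg, and was 0.0050 with quantile normalization. None passed the adjusted threshold (0% of all genes), and 18 were higher and 0 lower at an unadjusted p under 0.05, beside 3.71% and 3.08%. These comparisons share their control libraries.

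**Figure D3:**
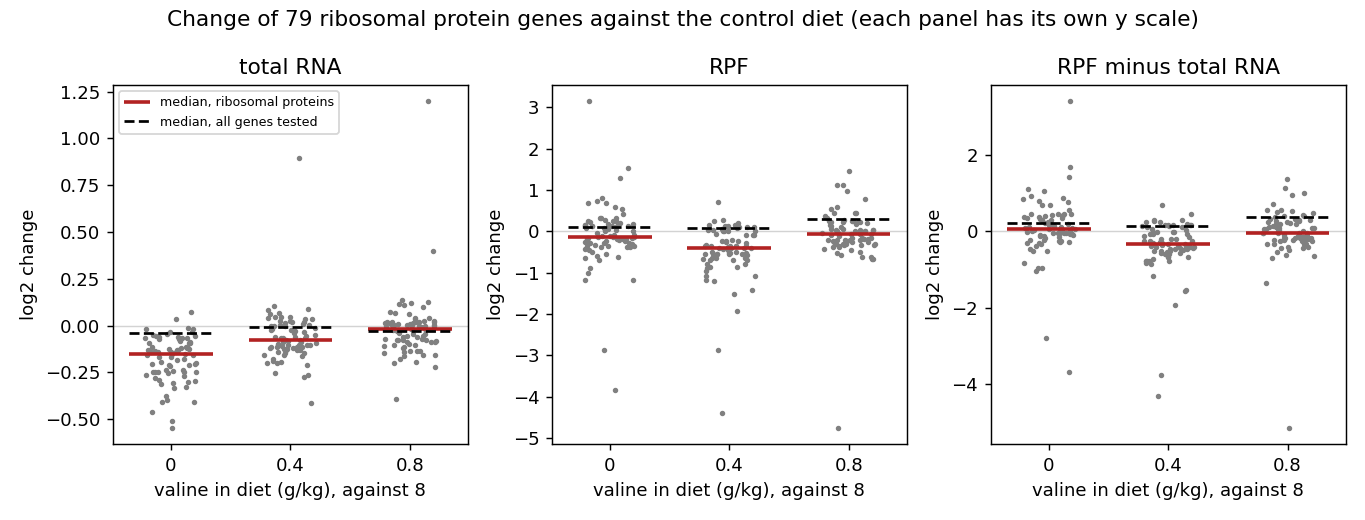
Log2 change against 8 g/kg (y axis, a separate scale in each panel) for each of 79 ribosomal protein genes (grey points) at 0, 0.4 and 0.8 g/kg valine, in total RNA, RPF and RPF minus total RNA. Red bars are the member medians and dashed bars the medians of all genes tested; in total RNA the member median runs from -0.15 at 0 g/kg to -0.02 at 0.8 g/kg.

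Rpl36, a large subunit protein, was lowest by p in total RNA on all 3 low diets. Its FPKM values (T-ALL 2, then T-ALL 3) were 3377 and 3757 at 8 g/kg, 2772 and 2649.5 at 0.8, 2576 and 2777 at 0.4, and 2679.5 and 2219.6 at 0 g/kg. Both controls lay above the other 6 libraries. The log2 change was -0.55 ± 0.12 at 0, -0.41 ± 0.12 at 0.4 and -0.39 ± 0.12 (SE) at 0.8 g/kg, with unadjusted p = 0.0014, 0.00722 and 0.00925 and adjusted p = 0.312, 1 and 1, so it did not pass on any diet.

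Rplp0, to which the stalk proteins that recruit elongation factors attach, had the same order. Its values were 6305 and 6078 FPKM at 8 g/kg, 5569 and 5482 at 0.8, 5324 and 5438 at 0.4, and 5355 and 4750.0 at 0 g/kg. Again both controls lay above all other libraries, with a log2 change at 0 g/kg of -0.30 ± 0.09 (SE, adjusted p = 0.604). Rps25, which serves initiation on some viral mRNAs, had 1897 and 1748 FPKM at 8 g/kg and 1565 and 1119 at 0 g/kg, a log2 change of -0.46 ± 0.15 (SE, adjusted p = 0.641). Rpl38, known for a part in Hox mRNA translation, and Rpl10a had log2 changes of -0.41 ± 0.14 and -0.31 ± 0.11 (SE).

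The 2 members with a value above 0 were Rpl23, at 0.07 ± 0.10, and Rpl22, at 0.04 ± 0.14 (SE), and the sign of Rpl22 turned at equal depth. Rpl39l had 10.9 and 9.65 FPKM at 8 g/kg, 22.1 and 26.4 at 0.8, 19.0 and 20.0 at 0.4, and 15.3 and 5.99 at 0 g/kg. Its log2 change at 0.8 g/kg was 1.20 ± 0.39 (SE, adjusted p = 1), from 74 total RNA reads over 8 libraries.

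Footprints gave no common direction for the diet without valine. In RPF at 0 against 8 g/kg, 45 of 79 members were lower and 34 higher, with a median of -0.12 against 0.12 over all 9718 genes tested. In T-ALL 2 the median was -0.26 and in T-ALL 3 it was 0.15. None was called, as was 0% of all genes, and 3 were lower and 2 higher at an unadjusted p under 0.05, beside 2.22% and 4.95%. The sign of the median turned with quantile normalization, to 0.04, and without the T-ALL 2 control, to 0.08.

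At 0.4 g/kg the RPF median was -0.39, with 60 members lower, against 0.08 over all genes; 0 were called, as was 0% of all genes, and 7 were lower and 0 higher at an unadjusted p under 0.05, beside 2.49% and 4.18%. This came mainly from T-ALL 2, with a median of -0.81 and 69 lower, while T-ALL 3 was at 0.00 with 38 lower. When T-ALL 2 at 0.4 g/kg, with its low share of reads, was left out, the median was -0.23, and leaving out the T-ALL 2 control gave -0.25. At 0.8 g/kg the median was -0.05 against 0.30 over all genes, none was called (0% of all genes), and 1 was lower and 1 higher, beside 0.854% and 4.72%. That median turned to 0.05 when T-ALL 2 at 0.8 g/kg was left out and to 0.12 without the T-ALL 2 control. Over the diet ranks 0 members were called, where 0.0103% of all genes were, and 5 rose and 1 fell at an unadjusted p under 0.05, beside 2.31% and 3.66%.

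Among single members, Rpl7a, a large subunit protein, was higher in footprints on the diet without valine. Its RPF values were 60.6 and 71.0 FPKM at 8 g/kg, 114 and 145 at 0.8, 80.6 and 145 at 0.4, and 245 and 148 at 0 g/kg. Both controls lay below the other 6 libraries, on 3 and 6 reads. The log2 change at 0 g/kg was 1.53 ± 0.42 (SE, adjusted p = 0.551). Rps27rt had a log2 change of 0.80 ± 0.31, Rpl28 of 0.73 ± 0.41 and Rpl29 of 0.54 ± 0.35 (SE), none past the adjusted threshold.

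Rpl34, a large subunit protein, went the other way. Its values were 257 and 281 FPKM at 8 g/kg, 189.6 and 279 at 0.8, 142 and 98.3 at 0.4, and 99.1 and 144 at 0 g/kg, with both lowest diets below the others. The log2 change at 0 g/kg was -1.17 ± 0.37 (SE, adjusted p = 0.579). Rps21, of the small subunit, had 526 and 308 FPKM at 8 g/kg, 228 and 279 at 0.8, 116 and 94.5 at 0.4, and 138 and 229.9 at 0 g/kg. Here both controls lay above the rest, the log2 change was -1.17 ± 0.40 at 0 and -1.93 ± 0.40 (SE) at 0.4 g/kg, and the sign at 0 g/kg turned at equal depth (0.11). Rpl36al had a log2 change of -1.01 ± 0.44 (SE) at 0 g/kg. Rpl41 had 121 and 53.3 FPKM at 8 g/kg and 0 and 63.7 at 0 g/kg, and Rps27l 73.3 and 42.9 at 8 and 8.29 and 0 at 0.8 g/kg, on at most 4 reads a library.

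**Figure D4:**
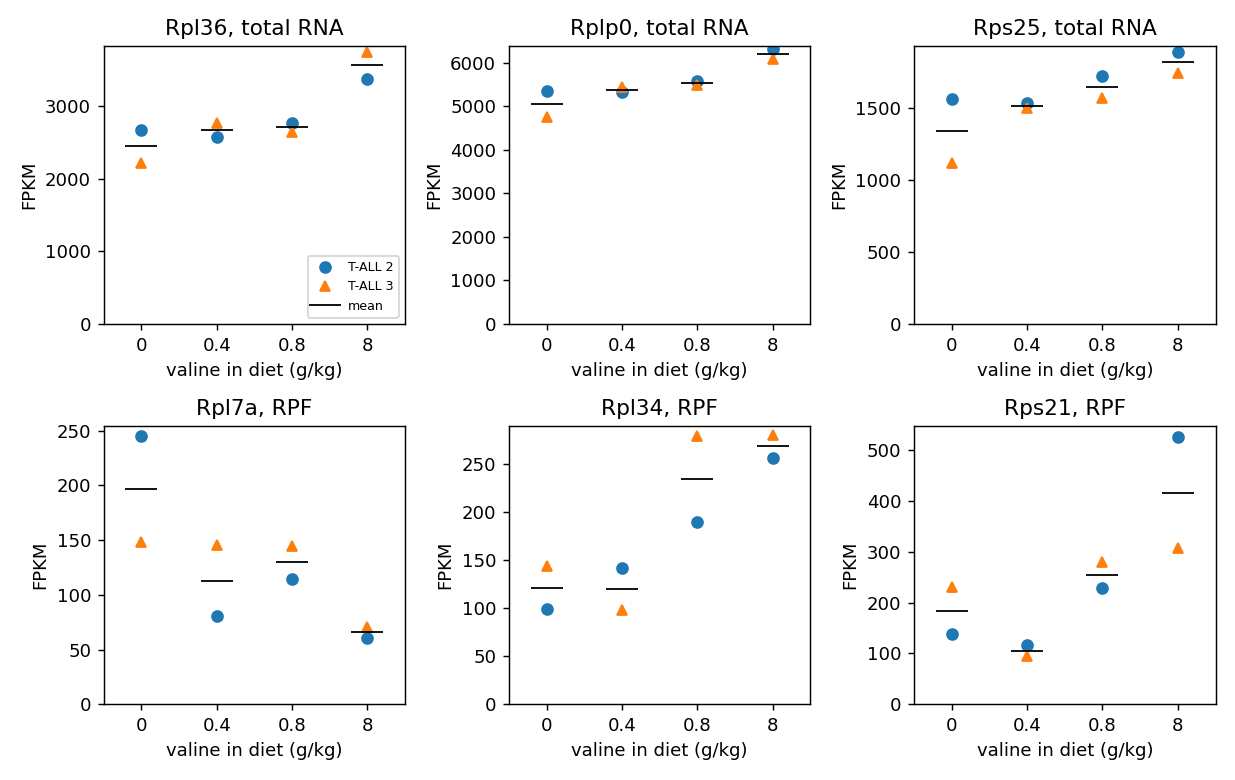
FPKM (y axis, from 0) by dietary valine (x axis) for Rpl36, Rplp0 and Rps25 in total RNA and Rpl7a, Rpl34 and Rps21 in RPF; points are single libraries and dashes means (n = 2). Both control libraries of Rpl36 and Rplp0 lie above the other 6, and those of Rpl7a below.

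No member passed the test for a diet change in the difference between the fractions. RPF minus total RNA at 0 against 8 g/kg had a member median of 0.06 (45 higher, 34 lower) against 0.20 over all 9361 genes tested, from -0.17 in T-ALL 2 and 0.42 in T-ALL 3. None was called, as was 0% of all genes, and 0 were higher or lower at an unadjusted p under 0.05, beside 4.84% and 1.74%. At 0.4 g/kg the median was -0.34 against 0.14, with 0 called (0% of all genes) and 0 past the unadjusted threshold, beside 4.21% higher and 2.47% lower. At 0.8 g/kg it was -0.04 against 0.36, with 0 called (0% of all genes), and 0 higher and 1 lower, beside 5.15% and 1.08%. The trend had a median slope of 0.01 per rank, of opposite sign in T-ALL 2 (0.08, 54 higher) and T-ALL 3 (-0.11, 61 lower), with 0 called (0% of all genes) and 0 past the unadjusted threshold, beside 2.14% and 3.8%. The largest values at 0 g/kg were -3.70 ± 2.20 for Rpl41 and 3.40 ± 2.17 (SE) for Rpl22l1, both with a library at 0 reads. The median SE of a member in the comparisons against 8 g/kg was 1.10 in this fit, whose variance trend runs on the mean difference. By this fit a change of that size could not be told from 0. In total RNA and RPF alone, the SE of Rpl10 at 0 g/kg was 0.12 and 0.26, beside 1.14 for the difference. The size of this SE, and the counts past the unadjusted threshold, thus depend on how the spread is modelled. Across members, the total RNA and the RPF change at 0 g/kg had a Pearson r of -0.14 (Spearman rho -0.16, n = 79), with no p given because members share libraries.

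By role, the 3 acidic stalk proteins had log2 changes in total RNA at 0 g/kg of -0.30 (Rplp0), -0.13 (Rplp1) and -0.02 (Rplp2), and none was called. In RPF over total RNA, Rplp1 (-1.95) and Rplp2 (-1.63) were called lower and Rplp0 (-1.12, adjusted p = 0.0894) was not. Of 12 genes known from leukaemia or Diamond-Blackfan anaemia, 11 were below 0 in total RNA with a median of -0.12, and 8 were called lower in RPF over total RNA, where 3.6% of all genes were. Rpl5 and Rpl11, which with 5S rRNA bind the p53 inhibitor Mdm2 when not built into ribosomes, had total RNA changes of -0.07 ± 0.11 and -0.21 ± 0.17 (SE). Rps6, the target of the S6 kinases, was at -0.10 ± 0.12 and Rps19, the gene most often mutated in Diamond-Blackfan anaemia, at -0.09 ± 0.10 (SE). Of 13 tested paralogs and parents of paralogs, 12 were below 0 in total RNA (median -0.12). In RPF over total RNA all 13 were below 0 (median -1.75), as were nearly all members. There 7 of the 13 were called lower, where 3.6% of all genes were.

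Other genes of the pathway were read from lists. Rack1 and Fau, ribosome components without an Rpl or Rps symbol, had total RNA changes at 0 g/kg of -0.18 ± 0.12 and -0.02 ± 0.11 (SE), neither called. In RPF over total RNA Fau was called lower at -1.70 ± 0.39 (SE, adjusted p = 0.0398), and Rack1, at -1.45 ± 0.37 (SE, adjusted p = 0.0524), was not. Of 19 other TOP mRNAs, 15 were below 0 in total RNA with a median of -0.11 and none was called. In RPF over total RNA 17 of these 19 were below 0, with a median of -0.93 against -0.26 over all genes. Of the 19, 4 were called lower, where 3.6% of all genes were: Eef1b2 (-2.52), Btf3 (-1.70), Eif3e (-1.67) and Naca (-1.56). Eef1b2 is a subunit of the elongation factor exchange complex and Eif3e of an initiation factor. With 1 pair of libraries left out, few or none of these 19 were called lower, and Fau was not called. Fewer of all genes were called lower as well.

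Of 20 regulators of ribosomal protein supply, none was called in total RNA at 0 g/kg, with a median of -0.03. Myc, which drives ribosomal protein transcription, had the smallest p, at -0.78 ± 0.15 (SE, adjusted p = 0.267). In RPF over total RNA 4 of 19 tested were called higher, Mtor (1.16), Larp1 (0.97), Myc (0.90) and Rptor (0.86), and Rheb, an activator of mTORC1, lower (-2.62), where 7.52% of all genes were called higher and 3.6% lower. With 1 pair left out, fewer of the 19 were called higher and Rheb was not called lower. Fewer of all genes were called in either direction as well. Of 23 assembly factors none was called in total RNA (median -0.17, 18 below 0). In RPF over total RNA 3 of the 23 were called higher, Grwd1 (1.28), Pes1 (0.84) and Efl1 (0.70), where 7.52% of all genes were. With 1 pair left out, few or none of the 23 were called higher, and fewer of all genes were. Of 8 genes linked to free ribosomal proteins and p53, none of 7 tested was called in total RNA, and of 5 tested in RPF over total RNA Ccng1 was called lower (-2.52), and with 1 pair left out none was.

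In total RNA, neutrophil markers stood higher and erythroid markers lower on the diet without valine. The 13 neutrophil markers in the table summed to 4.84 and 2.33 per 10000 total RNA reads at 0 g/kg and 0.110 to 0.736 in the other 6 libraries, with none at 0 in both 0 g/kg libraries. In RPF they summed to 28.5 and 3.54 at 0 g/kg and 0.239 to 1.20 elsewhere, with Csf3r at 0. The 12 erythroid markers summed to 1.99 and 1.12 in total RNA at 0 g/kg against 3.92 and 5.85 at 8 g/kg. They were between these at 0.4 g/kg (2.88 and 2.87) and 0.8 g/kg (2.60 and 2.44), so that the lower sums were not confined to 0 g/kg. The 5 natural killer markers summed to 5.51 and 4.06 at 0 g/kg against 5.07 and 4.25 at 8 g/kg. For the 8 macrophage markers the sums were 0.270 and 0.280 against 0.221 and 0.225. The library of T-ALL 3 at 0 g/kg, which had the lowest ribosomal protein share, had 428278 total RNA reads. Thinned to equal depth, the total RNA median at 0 g/kg was -0.17, beside -0.15 unthinned. The part of these markers in the ribosomal protein values was not tested.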

How the data were processed

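The authors deposited 1 table of FPKM values for 16 libraries; per the submitters' processing notes, the tools named are edgeR 3.14.0, STAR 2.5.0c, cutadapt 1.18 and Bowtie2 2.3.4, with mm10 and GRCm38. For tool roles, counting, gene filter and FPKM formula, the entry is: not given in the sources used here. Gene positions are RefSeq's (GRCm38.p6).

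Reads were recovered from the FPKM steps, and 100% of 149988 nonzero values came out whole (tolerance 0.02 reads). Simulated data were used to test the fits of total RNA and of RPF, each alone, for the diet without valine against the control diet. The rank trends, RPF minus total RNA and RPF over total RNA were not tested in this way. The outcome of the simulation is not given here. A limma fit (version 3.58.1, R 4.3.3) on log2(FPKM + 0.5), with a mean FPKM of at least 1, diet as a factor or rank, a variance trend and Benjamini-Hochberg adjustment over all genes, gave each comparison. RPF minus total RNA used limma's usual trend on the mean difference. A trend on the mean RPF level was tried after the calls were seen and, since it gave more calls, is reported only as an alternative. Values after ± are an SD or a limma SE, which measure the spread between libraries. Intervals for counting error alone were computed for the shares of reads and are not printed here. Unused per-sample columns numbered 0.

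Members and gene lists were chosen with earlier results of these data known. Genes were named where past the adjusted threshold, among the 5 smallest p-values per direction at 0 g/kg or in the trend, among the 5 highest or lowest by level or ratio, by role, or with a library at 0; changes at 0.4 and 0.8 g/kg, and Rpl10 for the small spread of its pairs, were chosen after their values were seen. Some genes that this rule names are not reported here.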

Additional observations from a re-analysis of the deposited data

How the results depend on the processing

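No member was called in any of the 12 diet comparisons under any alternative run, which makes these counts uninformative about stability. The member medians moved more. In total RNA at 0 against 8 g/kg, quantile normalization gave 0.0091, and leaving out 1 library gave -0.29 to -0.05. At 0.4 g/kg, centring on the median gene gave -0.046 and leaving out 1 library -0.093 to -0.062. At 0.8 g/kg, centring gave -0.0046, equal depth -0.034, voom -0.0045 and leaving out 1 library -0.045 to -0.022. The total RNA trend under quantile normalization was 0.0050. In RPF, leaving out 1 library gave -0.24 to 0.08 at 0 g/kg, -0.59 to -0.23 at 0.4 and -0.25 to 0.12 at 0.8 g/kg. In RPF minus total RNA the ranges were -0.01 to 0.27, -0.51 to -0.14 and -0.18 to 0.15, with slopes over the diet ranks of -0.05 to 0.07.

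The 43 calls in RPF over total RNA became 67 without centring (median -1.96), 3 with a pseudocount of 0.1, 13 at equal depth and 0 to 4 without 1 pair (medians -1.69 to -1.51). Of the alternatives chosen after seeing the data, the trend on the mean RPF level gave 77 (71, 72, 73, 74 or 75 without 1 pair), no diet term 69 and voom 77; the cause was not tested. These counts of members are given without the share of all genes called in the same runs. With T-ALL number as a replicate block 15 members were called. Whether the numbers pair the samples is not settled: same-numbered deviations correlated at -0.04 to 0.25 in total RNA and -0.02 to 0.07 in RPF. No named gene that was called changed sign; of uncalled ones Rpl22, Rps21 and Rps27rt did so at equal depth, and Rpl39 and Rpl39l without 1 library. RPF depth limits single members, which had 3 to 2282 reads over 8 libraries.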
